A study of Mus musculus with 33 samples.

Results

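Solute carriers are membrane proteins that move amino acids, ions, sugars, metals and metabolites across the plasma membrane or the membranes of organelles. The genes described here are the 140 mouse genes whose symbol has the form Slc, number, a, number, and whose deposited values summed to 200 or more over all 33 libraries, out of 18853 genes listed in the files. Of 299 genes with such a symbol, 144 reached that sum, and Slc1a2, Slc1a3, Slc38a3 and Slc40a1 were left out by name. The sum chose the members and says nothing of the class of cell that carries them. The lowest sums inside the limit were 202 (Slc26a11), 205 (Slc6a13) and 207 (Slc9a8), and the highest outside were 197 (Slc31a2), 194 (Slc25a14) and 191 (Slc25a40).

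The libraries were plate-based single-cell RNA sequencing (SORT-seq) of mouse hippocampus, the brain region that holds the dentate gyrus and its neural stem cells. One library came from wild-type C57BL/6 mice older than 12 months, 1 held GFP-positive cells of NestinGFP mice, labelled as the same strain, which carry a fluorescent reporter named for the stem cell gene Nestin, and 31 came from wild-type C57BL/6 mice in 5 numbered experiments, called niche experiments below. In all of them neurons had been depleted, and live single cells that did not bind antibodies against GluR1 and Cd24 were sorted into wells, so that cells carrying either protein are under-represented. Neither the age of the niche mice nor the number of mice per experiment is given in the sources used here.

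A cell takes up most of what it uses through such carriers, and in the brain the work is divided between cell types. Astrocytes clear neurotransmitters and buffer ions and acid, vessel cells pass glucose, amino acids and lactate from the blood, oligodendrocytes supply the materials of myelin, and microglia carry the lysosomal and metal carriers of phagocytes. The comparison asked which class of cell carries which carrier.

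A well counted as a cell from 1000 transcripts up, which held for 1738 of 4608 wells: 138 from older mice, 315 NestinGFP and 1285 niche. Transcripts per library ran from 9555 to 1965200 in these cells. Each cell's unique molecular identifiers (UMIs) were split by chance into 2 equal parts. Classes were drawn from the first part without any gene whose name starts with Slc, and every level and test below comes from the second part. 9 classes, each called "-like" because its name rests on marker genes, had at least 5 cells in at least 2 niche experiments: astrocyte (236 cells), neural stem cell (27), proliferating progenitor (32), neuroblast and immature neuron (189, called neuroblast below), oligodendrocyte precursor (275), mature oligodendrocyte (66), microglia (286), lymphoid (36) and endothelial (22). Experiments often fell into different clusters of a class: 30 of 48 astrocyte-like cells of experiment 3 and 14 of 15 of experiment 4 lay in separate clusters, led by Msmo1 and by Serpina3n, and 105 of 136 precursor-like cells of experiment 1 and 79 of 88 of experiment 2 lay in different clusters. Of neuroblast-like cells, 59 of 83 of experiment 2 lay in a cluster led by Scrt2. In experiment 3, 25 of 27 lay in one led by Rpl37rt. In experiment 4, 42 of 67 lay in one led by Dlx2 and 24 in one led by Egr2. Whether the files of all experiments name genes by the same annotation was not tested, so a leading gene of such a cluster need not mark a kind of cell. The neural stem cell-like and endothelial-like classes come from experiments 2 and 5 only. Stem cell-like cells carried 6045 and 6187 CPM (counts per 1000000) of 14 stem cell markers, against 1130 to 3324 CPM in astrocyte-like cells, and also 11722 and 12937 CPM of 14 astrocyte markers. Counts were summed per class and experiment into 33 sums of 5166 to 456333 counts (median 57433), so 1 count is a large step in the small classes.

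Levels are CPM after scaling between the sums, given per experiment in the order of the experiment numbers. SORT-seq reads the 3' ends of transcripts, so levels need no correction for length. Differences are log2 fold changes of a class over the mean log2 level of the other 8 classes, from 1 edgeR quasi-likelihood fit with experiment as a block, and a call is an adjusted p under 0.05 over all 4810 genes tested. A ratio in CPM is the mean of a class over the mean of the other 8 class means. In classes summed from several cells, fewer transcripts per cell and fewer cells carrying the gene cannot be told apart.

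The filter on low counts left 73 of the 140 members. Of these, 65 were called higher in at least 1 class, where 81.0% of all genes tested were, and 8 in none. 18 were higher in exactly 1 class, 32 in 2, 12 in 3 and 3 in 4 or more. A gene that passed the filter through a single class had to differ between classes, so these counts describe the members and carry no weight of their own. The counts per transport group below are to be read in the same way. The heatmap of mean levels shows the mean level of each carrier in each class. In 31 of the 73 the leading class lay at least 2-fold above the next, and in 17 at least 5-fold.

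**Figure D1:**
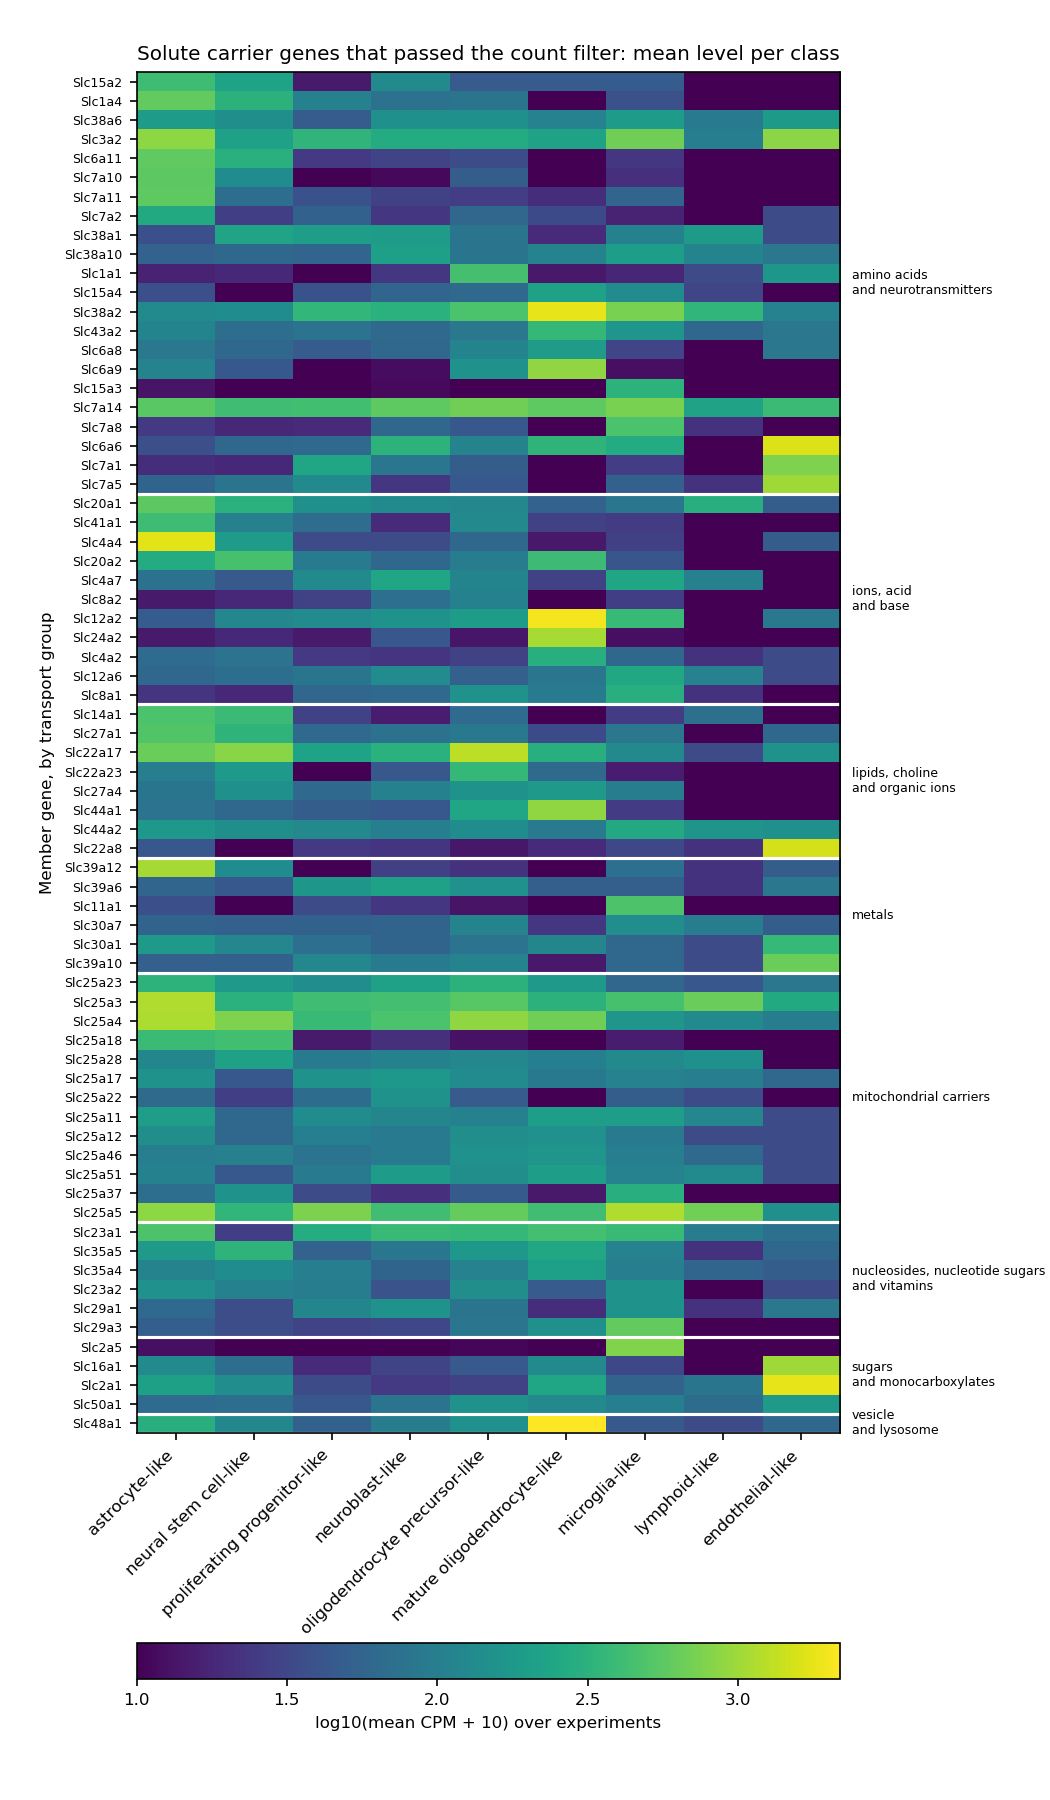
Mean level of 71 of the 73 members that passed the count filter in 9 classes (columns), grouped by what they transport (rows), as log10(mean CPM + 10) over the niche experiments. Yellow cells mark high levels: Slc4a4 in astrocyte-like, Slc48a1 in mature oligodendrocyte-like and Slc2a1 in endothelial-like cells, and the lymphoid-like column is dark almost throughout.

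The summed level of the members had its highest mean in astrocyte-like cells. It was 24618 ± 980 CPM there (SD, n = 5 experiments), 19287 ± 6095 in mature oligodendrocyte-like (n = 3), 16158 ± 525 in oligodendrocyte precursor-like (n = 5), 15479 ± 2249 in microglia-like (n = 5), 15438 ± 7557 in endothelial-like (n = 2) and 14458 ± 3548 in stem cell-like cells (n = 2). Neuroblast-like cells held 10615 ± 2609 (n = 5), proliferating progenitor-like cells 9453 ± 2080 (n = 3) and lymphoid-like cells 5735 ± 1361 CPM (n = 3). The astrocyte-like sums (22891 to 25317) lay above every sum of the other classes except the highest mature oligodendrocyte-like one, 22995 CPM, and the lymphoid-like ones (4272 to 6963) overlapped only with the lowest neuroblast-like one, 6815 CPM.

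In astrocyte-like cells 31 members were called higher (42.5% of those tested, where 24.2% of all genes were) and 2 lower (background 4.68%). Stem cell-like cells had 15 higher (20.5%, background 9.92%). Mature oligodendrocyte-like cells had 19 of 73 higher (background 15.8%) and 1 lower (background 5.51%), and endothelial-like cells had 11 higher (15.1%, background 7.03%) and 2 lower (background 1.33%). Near their backgrounds were microglia-like cells with 21 higher (28.8%, background 24.6%) and 6 lower (background 7.17%), and oligodendrocyte precursor-like cells with 17 higher (23.3%, background 23.8%) and 1 lower (background 4.37%). Under their backgrounds were neuroblast-like cells with 12 higher (16.4%, background 22.5%) and 2 lower (background 5.30%), and proliferating progenitor-like cells with 4 higher (5.48%, background 14.1%). Lymphoid-like cells had 0 higher (background 11.3%), 1 at an unadjusted p under 0.05 in edgeR and 0 in DESeq2, and 7 lower (background 7.92%). No member was called lower in stem cell-like cells (background 0.728%) or in proliferating progenitor-like cells (background 2.85%), where 1 and 5 were at an unadjusted p under 0.05 in edgeR and 0 in DESeq2 in both.

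The median log2 fold change of the tested members was 0.86 in astrocyte-like cells, where that of all genes tested was 0.23, and 0.65 in oligodendrocyte precursor-like cells, where it was 0.28. In lymphoid-like cells it was -1.55 (all genes -0.55) and in endothelial-like cells -1.42 (all genes -0.58). Single experiments carry some of these counts: without experiment 2 stem cell-like cells had 5 calls and endothelial-like cells 7, and without experiment 1 mature oligodendrocyte-like cells had 9. Neuroblast-like cells had 7, 4, 5 and 6 without experiments 1, 2, 3 and 4, and all lower calls together were 21 in the full fit and 3 without experiment 2. Under another scaling of the sums the whole set of genes shifted, by 0.55 in endothelial-like, 0.30 in astrocyte-like, -0.44 in neuroblast-like and -0.36 (log2) in proliferating progenitor-like cells. Calls in neuroblast-like cells were then 6 higher and 5 lower, and those in proliferating progenitor-like cells 1 higher and 5 lower.

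The amino acid and neurotransmitter carriers are the largest group, with 30 members, 23 tested and 21 called higher in a class (background 81.0%). Of these, 9 were called in astrocyte-like, 7 in microglia-like, and 6 each in stem cell-like and mature oligodendrocyte-like cells. Slc6a11, which takes GABA back up from around synapses, led in astrocyte-like cells. It was at 571, 818, 765, 351 and 371 CPM in astrocyte-like cells and 527 and 70.3 CPM in stem cell-like cells. The next class, precursor-like cells, averaged 25.01 CPM. Its astrocyte-like level was 12.4-fold the mean of the other classes (5.51 ± 0.40, adjusted p 1.61e-35). In stem cell-like cells Slc6a11 was called higher too (8.97e-10), but not without experiment 2 (adjusted p 0.820).

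Carriers of small neutral amino acids and cystine led in the same class. Slc7a10, which carries serine and glycine, was at 767, 655, 370, 403 and 568 CPM in astrocyte-like cells, against 187 and 70.3 CPM in stem cell-like cells and 38.9 CPM or less on average elsewhere. Slc7a11, which exchanges cystine for glutamate, was at 538, 421, 395, 1001 and 445 CPM, with experiment 4 apart from the others, against 60.6 ± 13.7 CPM (n = 2) in stem cell-like cells. Every astrocyte-like value of both genes lay above every value of every other class. The neutral amino acid carrier Slc1a4 averaged 586 ± 164 CPM (n = 5) in astrocyte-like cells, 309 ± 139 (n = 2) in stem cell-like cells and 95.8 ± 88.0 CPM (n = 3) in proliferating progenitor-like cells. The ratios to the other classes were 24.7 for Slc7a10, 24.4 for Slc7a11 and 8.27 for Slc1a4, with adjusted p of 4.55e-41, 1.62e-31 and 2.25e-29. The heavy chain Slc3a2, the shared partner of Slc7a5, Slc7a8, Slc7a10 and Slc7a11, was broader: 858 ± 127 CPM in astrocyte-like (n = 5), 843 ± 429 in endothelial-like (n = 2) and 665 ± 196 CPM in microglia-like cells (n = 5), and 332 CPM or less on average elsewhere.

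The other light chains led in the 2 further classes with the most Slc3a2. Slc7a5, a carrier of large neutral amino acids at the blood-brain barrier, was at 1395 and 616 CPM in endothelial-like cells, against at most 120 ± 104 CPM (n = 3) on average in any other class. Slc7a8, which carries a similar range of amino acids, was at 425, 654, 573, 300 and 373 CPM in microglia-like cells and 50.4 CPM or less on average elsewhere. Neither gene's leading class overlapped with any other (Slc7a5, 4.66 ± 0.54, adjusted p 7.06e-15; Slc7a8, 5.47 ± 0.42, 2.00e-33). Slc7a8 had no count in mature oligodendrocyte-like or endothelial-like cells, and Slc7a5 none in mature oligodendrocyte-like cells.

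Endothelial-like cells led for 2 further members of the group. The cationic amino acid carrier Slc7a1 was at 1047 and 462 CPM there and at 239, 286 and 173 CPM in proliferating progenitor-like cells, with the other classes at 73.3 CPM or less on average. The 2 leading classes did not overlap with each other, and the gene was called higher in each (5.56 ± 0.66, adjusted p 1.42e-14; 3.41 ± 0.63, 2.51e-06). Slc6a6, the taurine carrier, was at 2392 and 848 CPM in endothelial-like cells, with mature oligodendrocyte-like (325 ± 233, n = 3), neuroblast-like (318 ± 124, n = 5) and microglia-like cells (267 ± 114 CPM, n = 5) next. It was called higher in all 4 classes, and its endothelial-like level was 11.4-fold the mean of the others (4.57 ± 0.43, adjusted p 7.87e-22). In neuroblast-like cells the call (1.70 ± 0.39, adjusted p 1.85e-04) rests on the mean of log2 levels, since the level itself was only 1.04 times the mean of the other classes. The same holds in mature oligodendrocyte-like cells (1.07 times) and in microglia-like cells, whose level was 0.856 times that mean.

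Proliferating progenitor-like cells were the highest class for none of the 73 tested members. Besides Slc7a1, the calls were Slc38a1, a sodium-coupled carrier of glutamine, at 119, 201 and 259 CPM (1.33 ± 0.50, adjusted p 0.0485), Slc7a5 (1.73 ± 0.62, 0.0363) and Slc1a4 (1.97 ± 0.74, 0.0496). Slc38a1 lay above the mean of the other classes of its experiment in 3 of 3 experiments, Slc7a5 in 1 and Slc1a4 in 0. None of these 3 calls held without experiment 2, 3, 4 or 5 (adjusted p 0.0722 to 0.460), nor under another scaling, in DESeq2, without the count filter or on raw UMIs (0.0568 to 0.276). Slc38a1 averaged 193 ± 70.3 CPM in these cells (n = 3), 183 ± 137 in neuroblast-like cells (n = 5) and 179 ± 67.1 CPM in lymphoid-like cells (n = 3), with overlapping values. In stem cell-like cells Slc38a1 was at 442 and 0 CPM in experiments 2 and 5, and was called higher there too (2.19 ± 0.53, adjusted p 7.26e-04).

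In oligodendrocyte precursor-like cells the glutamate and aspartate carrier Slc1a1 was the leading call. It was at 451, 520, 327, 696 and 208 CPM there, at 249 and 77.1 CPM in endothelial-like cells and 24.1 CPM or less on average in the other 7 classes. The precursor-like values lay above all others except the higher endothelial-like one. Slc1a1 was 15.4-fold the mean of the other classes (4.87 ± 0.36, adjusted p 2.07e-35). Its gene lies on chromosome 19 at 28835135 to 28913960 (GRCm38.p6).

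Mature oligodendrocyte-like cells led for glycine, glutamine and creatine carriers. Slc6a9, which takes up glycine, was at 1020, 1493 and 143 CPM, against 145 ± 74.9 CPM (n = 5) in precursor-like and 102 ± 95.1 CPM (n = 5) in astrocyte-like cells. The value of experiment 5, from 6 cells, fell within the precursor-like range, while the other 2 lay above it. It was 24.8-fold the mean of the other classes (6.10 ± 0.51, adjusted p 1.25e-27). Slc38a2, a sodium-coupled carrier of neutral amino acids, was at 2186, 2489 and 641 CPM, against 731 ± 185 CPM (n = 5) in microglia-like and 470 ± 269 CPM (n = 5) in precursor-like cells, 5.60-fold the mean of the others (2.88 ± 0.30, 8.52e-19). The creatine carrier Slc6a8 was lower and less even, at 212, 342 and 0 CPM (2.60 ± 0.62, adjusted p 2.77e-04), and its call was lost without experiment 1 (0.0657).

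The tested peptide carriers led in different classes. Slc15a3, which moves histidine and peptides out of lysosomes, was at 379, 259, 334, 300 and 319 CPM in microglia-like cells, with 102 counts there and 3 counts in all other classes together. Slc15a2, a peptide carrier of the plasma membrane, was at 245, 234, 663, 377 and 469 CPM in astrocyte-like cells, with stem cell-like (217 ± 90.7, n = 2) and neuroblast-like cells (118.5 ± 115.6 CPM, n = 5) next. Slc15a3 was called in microglia-like cells (adjusted p 6.91e-32) and Slc15a2 in astrocyte-like (3.26e-17), stem cell-like and neuroblast-like cells. Slc15a3 was more restricted than Slc15a2. Slc15a4, of the same family, was at 225, 187 and 214 CPM in mature oligodendrocyte-like and 53.2 to 210 CPM in microglia-like cells. It was called higher in both (3.64 ± 0.70, adjusted p 2.88e-06; 2.75 ± 0.58, 1.455e-05).

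Of the carriers of ions, acid and base, 24 members, 11 were tested and each of the 11 was called higher in a class (background 81.0%). Of these, 4 each were called in astrocyte-like, mature oligodendrocyte-like and microglia-like cells. Slc4a4, which moves bicarbonate with sodium, gave the lowest adjusted p of any member in astrocyte-like cells. It was at 1794, 1754, 1733, 1508 and 1877 CPM there, at 84.9 and 281 CPM in stem cell-like cells and 51.99 CPM or less on average elsewhere, with no count in lymphoid-like cells. No value of another class came within 5-fold of the lowest astrocyte-like one. Its level was 40.2-fold the mean of the other classes (6.16 ± 0.28, adjusted p 4.61e-77). The gene lies on chromosome 5 at 88793858 to 89239656 (GRCm38.p6).

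Another bicarbonate carrier, Slc4a7, was highest in neuroblast-like and microglia-like cells, at 235 ± 198 and 229 ± 83.0 CPM (n = 5 each). Its neuroblast-like values were 539, 148, 265, 221 and 0 CPM, a wider spread than in microglia-like cells, where they ran from 133 to 340 CPM. The neuroblast-like call (2.12 ± 0.45, adjusted p 3.68e-05) was lost without experiment 2 (0.248).

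The 2 phosphate carriers differed in the class with the highest mean. Slc20a1 averaged 547 ± 183 CPM in astrocyte-like (n = 5), 302 ± 29.4 in stem cell-like (n = 2) and 289 ± 99.7 CPM in lymphoid-like cells (n = 3). Slc20a2 averaged 448 ± 136 CPM in stem cell-like (n = 2), 393 ± 50.2 in mature oligodendrocyte-like (n = 3) and 265 ± 176 CPM in astrocyte-like cells (n = 5), and had no count in lymphoid-like cells. Both were called in astrocyte-like cells (Slc20a1, 2.25 ± 0.27, adjusted p 1.24e-14). Slc20a2 was also called in mature oligodendrocyte-like (3.16 ± 0.55, 2.38e-07) and stem cell-like cells (3.79 ± 0.58, 6.31e-09). Without experiment 2, which leaves 1 stem cell-like sum of 5 cells, its log2 fold change there was 2.54 and the call was lost.

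Mature oligodendrocyte-like cells led for Slc24a2 and Slc12a2. Slc24a2, which exchanges sodium for calcium and potassium, was at 1841, 778 and 570 CPM, against 32.96 ± 55.49 CPM (n = 5) in neuroblast-like cells and 8.49 CPM or less on average in the other 7 classes. Slc12a2, which takes up sodium, potassium and chloride together, was at 2106, 2240 and 1567 CPM, against 373 ± 87.5 CPM (n = 5) in microglia-like and 180 ± 53.9 CPM (n = 5) in precursor-like cells. Neither gene's values overlapped with those of another class. The ratios were 149 for Slc24a2 (8.02 ± 0.59, adjusted p 3.78e-35) and 15.02 for Slc12a2 (4.61 ± 0.34, 1.61e-34).

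The sodium-calcium exchangers Slc8a1 and Slc8a2 had different leading classes, but both were called higher in precursor-like cells. Slc8a3, of the same family, was under the count filter, with 50 counts in precursor-like cells and 6 or fewer in each other class. Slc8a1 was at 363, 160, 263, 350 and 266 CPM in microglia-like cells, against 148 ± 85.7 CPM (n = 5) in precursor-like cells, and was called in both (microglia-like 3.32 ± 0.44, adjusted p 2.45e-12). Slc8a2 was at 40.6, 132, 27.3, 251 and 29.7 CPM in precursor-like cells and at 62.2 ± 42.8 CPM (n = 5) in neuroblast-like cells, where the values overlapped (precursor-like 3.74 ± 0.62, 3.00e-08). Slc8a1 averaged 12.6, 8.49 and 12.0 CPM in astrocyte-like, stem cell-like and lymphoid-like cells and had no count in endothelial-like cells.

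**Figure D2:**
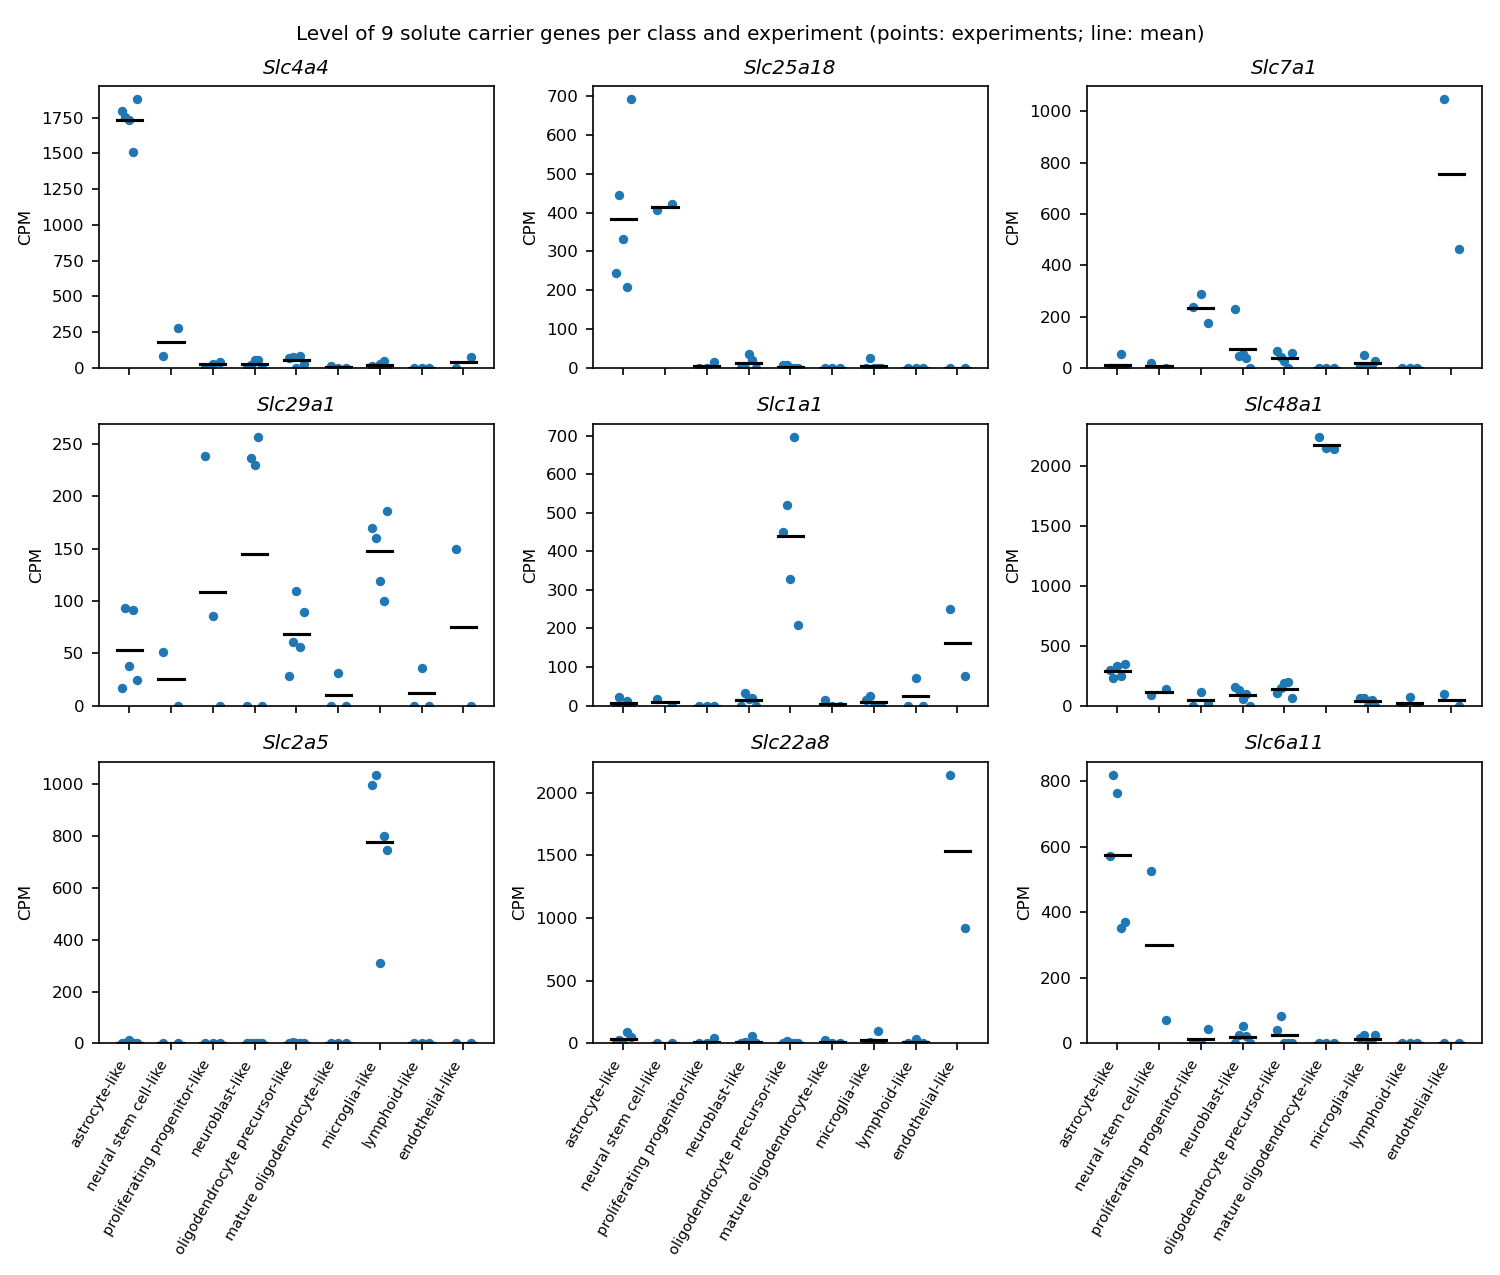
Level (CPM, linear axes from 0) of 9 members in the 9 classes, 1 point per niche experiment and a line at the mean. Slc4a4, Slc48a1, Slc2a5 and Slc22a8 each stood out in 1 class, whereas Slc25a18 was shared by astrocyte-like and stem cell-like cells and Slc29a1 by neuroblast-like and microglia-like cells.

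Among carriers of lipids, choline, urea and organic ions, 12 members, 8 were tested and all 8 called higher in a class (background 81.0%). Slc22a8, an organic anion carrier of brain vessels and choroid plexus, was at 2143 and 925 CPM in endothelial-like cells, against at most 32.8 ± 38.4 CPM (n = 5) on average elsewhere. It was 114-fold the mean of the other classes (6.88 ± 0.56, adjusted p 7.00e-29). Without experiment 5, which leaves 1 endothelial-like sum of 15 cells, the log2 fold change was 6.82 and the adjusted p 1. In these cells choroid plexus markers summed to 542 CPM in experiment 2, with 1 of 7 present, and to 0 in experiment 5, and fibroblast markers to 417 CPM with 2 of 9 present and 356 CPM with 1 of 9. Their part in the result was not tested. The gene lies on chromosome 19 at 8591254 to 8611835 (GRCm38.p6).

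Slc14a1, a urea transporter, was shared by 2 classes, at 375, 327, 523, 624 and 469 CPM in astrocyte-like cells and 493 and 281 CPM in stem cell-like cells. Slc27a1, which brings fatty acids into cells, was at 457, 608, 612, 260 and 544 CPM in astrocyte-like cells and 510 and 141 CPM in stem cell-like cells. The 2 classes overlapped in both genes, and no other class averaged over 79.0 CPM of either. Calls in astrocyte-like cells were 4.53 ± 0.40 for Slc14a1 (adjusted p 7.64e-26) and 3.41 ± 0.34 for Slc27a1 (3.64e-21), and Slc14a1 was called at 4.47 ± 0.60 in stem cell-like cells (3.30e-11).

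The precursor-like class carried 2 members of the Slc22 family. Slc22a17, known as a receptor for the iron-binding protein lipocalin 2, was at 1132, 1457, 1308, 974 and 1397 CPM there, 828 ± 77.8 in stem cell-like cells (n = 2) and 639 ± 118 CPM in astrocyte-like cells (n = 5). Slc22a23, whose substrate is not established, was at 386, 368, 300, 446 and 268 CPM in precursor-like cells and 136 and 211 CPM in stem cell-like cells. All precursor-like values of both genes lay above those of the other classes (2.43 ± 0.23, adjusted p 1.60e-22; 4.79 ± 0.43, 1.16e-24). Slc44a1, a choline carrier, was at 808, 1120 and 712 CPM in mature oligodendrocyte-like cells, against 230 ± 133 CPM (n = 5) in precursor-like cells, and was called higher in both (mature 5.14 ± 0.47, 1.21e-23).

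The metal carriers are 20 members, of which 6 were tested and all 6 called higher in a class (background 81.0%). Slc39a12, a zinc importer, was at 1550, 772, 880, 780 and 1285 CPM in astrocyte-like cells, against 187 and 70.3 CPM in stem cell-like cells and 61.0 ± 13.9 CPM (n = 5) in microglia-like cells. Its lowest astrocyte-like value was above every other value, and the level was 31.3-fold the mean of the other classes (5.88 ± 0.31, adjusted p 5.47e-60). Another zinc importer, Slc39a6, was at 308, 201, 195, 209 and 131 CPM in neuroblast-like cells, with proliferating progenitor-like (164 ± 41.7, n = 3) and precursor-like cells (142 ± 31.5 CPM, n = 5) overlapping (neuroblast-like 1.64 ± 0.37, 1.08e-04). The zinc carriers Slc39a10 and Slc30a1 were called higher in endothelial-like cells.

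Slc11a1, which moves iron and manganese out of the phagosome, was at 633, 666, 191, 400 and 479 CPM in microglia-like cells. No other class averaged over 27.3 CPM, the level in astrocyte-like cells, and 4 other classes had no count. Slc11a1 was called higher in astrocyte-like cells as well (2.20 ± 0.87, adjusted p 0.0416), on 9 counts, with none in experiments 1 and 5. That call rests on the mean of log2 levels, which the classes without a count lower. The microglia-like level was 55.8-fold the mean of the others (6.55 ± 0.46, adjusted p 9.52e-39), and experiment 3 was the lowest.

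The mitochondrial carriers are 26 members, of which 13 were tested and 10 called higher in a class (background 81.0%), 6 of them in astrocyte-like cells. The general carriers were present in every class. Slc25a4 and Slc25a5, which exchange ADP and ATP, had opposite leading classes: Slc25a4 averaged 1111 ± 285 CPM in astrocyte-like and 156 ± 94.1 CPM in microglia-like cells, and Slc25a5 1138 ± 511 CPM in microglia-like and 863 ± 144 CPM in astrocyte-like cells (n = 5 each). Slc25a4 was called higher in astrocyte-like cells (1.72 ± 0.23, adjusted p 1.11e-11) and lower in microglia-like cells, Slc25a5 higher in both (microglia-like 1.31 ± 0.23, 1.24e-07). The phosphate carrier Slc25a3 was at 1011, 1099, 905, 1612 and 1087 CPM in astrocyte-like cells, with every other class at 627 CPM or less on average (1.45 ± 0.22, adjusted p 8.30e-10).

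The 2 mitochondrial glutamate carriers were highest in different classes. Slc25a18 was at 245, 444, 331, 208 and 692 CPM in astrocyte-like cells and 408 and 422 CPM in stem cell-like cells, and no other class averaged over 11.2 CPM. Slc25a22 was at 231, 225, 88.4, 76.6 and 131 CPM in neuroblast-like cells, with proliferating progenitor-like (57.5 ± 49.8, n = 3) and astrocyte-like cells (54.0 ± 27.6 CPM, n = 5) next. Slc25a18 was called by 5.36 ± 0.68 in stem cell-like cells (adjusted p 1.42e-12) and 5.44 ± 0.47 in astrocyte-like cells (2.75e-26), Slc25a22 by 2.84 ± 0.55 in neuroblast-like cells (5.03e-06) in 5 of 5 experiments. Neither gene was called in the other's classes.

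Slc25a37, which imports iron into mitochondria, was at 301, 284, 191, 250 and 426 CPM in microglia-like cells, against 221 and 70.3 CPM in stem cell-like cells (4.11 ± 0.47, adjusted p 2.61e-16). A higher level stood outside the 9 classes, in 7 cells of experiment 3 that carried 820056 CPM of 7 haemoglobin and erythroid markers. There Slc25a37 had 17 counts, 2970.0 CPM (exact 95% Poisson interval 1730.1 to 4755), and Slc25a39, another mitochondrial carrier, 12 counts, 2096 CPM (1083 to 3662). These intervals cover counting error only. The cells shared a cluster with 34 cells of experiment 2, which had choroid plexus and microglia markers and 1 count of Slc25a37, so the cluster stayed unnamed and untested.

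Nucleoside, nucleotide sugar and vitamin carriers are 10 members, with 6 tested and 4 called higher in a class (background 81.0%). The nucleoside carrier of lysosomes, Slc29a3, was at 533, 839, 549, 300 and 745 CPM in microglia-like cells, against 138 ± 127 CPM (n = 3) in mature oligodendrocyte-like cells, with no overlap (5.24 ± 0.37, adjusted p 1.12e-37). Slc29a1, that of the plasma membrane, was at 0, 236.7, 229.8, 256.4 and 0 CPM in neuroblast-like cells and 170, 160, 119, 100 and 186 CPM in microglia-like cells. The neuroblast-like experiments without a count, 1 and 5, held 7 and 5 cells. Slc29a1 was called in neuroblast-like (2.10 ± 0.39, adjusted p 2.00e-06) and microglia-like cells.

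Sugar and monocarboxylate carriers are 12 members, with 5 tested and 4 called higher in a class (background 81.0%), 3 each in astrocyte-like and endothelial-like cells. Slc2a1, the glucose carrier of the blood-brain barrier, was at 2093 and 1464 CPM in endothelial-like cells, against 227 ± 177 CPM (n = 3) in mature oligodendrocyte-like and 204 ± 60.2 CPM (n = 5) in astrocyte-like cells. Slc16a1, which carries lactate, was at 1545 and 462 CPM in endothelial-like cells, against 120 ± 43.6 CPM (n = 3) in mature oligodendrocyte-like and 119 ± 43.6 CPM (n = 5) in astrocyte-like cells. The endothelial-like values lay above all others in both genes (Slc2a1, 4.78 ± 0.40, adjusted p 6.50e-27; Slc16a1, 5.11 ± 0.56, 8.05e-17).

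Slc2a5, known as a fructose carrier, had the largest share of its counts in 1 class among the members tested. It was at 997, 1036, 310, 801 and 745 CPM in microglia-like cells, 270 counts in all, with 1 count in astrocyte-like cells, 1 in precursor-like cells and none in the other 6 classes. The adjusted p was 1.53e-68 in edgeR, and 0.155 in DESeq2, the only alternative in which the call was lost. The gene lies on chromosome 4 at 150119344 to 150144168 (GRCm38.p6). The lysosomal haem carrier Slc48a1, the 1 member tested of 6 in vesicles and lysosomes, varied little within mature oligodendrocyte-like cells, at 2239, 2146 and 2137 CPM, against 290 ± 49.6 CPM (n = 5) in astrocyte-like cells (4.94 ± 0.32, adjusted p 3.44e-44).

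Since Slc2a5, Slc11a1, Slc7a8 and Slc15a3 stood together in microglia-like cells, their promoters were searched for GAGGAAG, a motif of the myeloid factor PU.1, on both strands of 300 bases (250 before to 50 after the start) of RefSeq, build GRCm38.p6. The motif was in 13.6% of 32851 promoters and in 18 of 148 promoters (12.2%) of the 109 members with an entry. 3 of these promoters are printed 5' to 3' on the gene's strand, with a match in capitals, to show the 1 match, which lies 195 bases before the start of Slc7a8 on the opposite strand. Slc29a3, also highest in microglia-like cells, was searched too and has no match, and Slc15a3 and Slc25a37 have no entry. They are chr4:150119094-150119393 (plus strand) for Slc2a5, chr1:74374953-74375252 (plus) for Slc11a1 and chr14:54781837-54782136 (minus) for Slc7a8.
Slc2a5: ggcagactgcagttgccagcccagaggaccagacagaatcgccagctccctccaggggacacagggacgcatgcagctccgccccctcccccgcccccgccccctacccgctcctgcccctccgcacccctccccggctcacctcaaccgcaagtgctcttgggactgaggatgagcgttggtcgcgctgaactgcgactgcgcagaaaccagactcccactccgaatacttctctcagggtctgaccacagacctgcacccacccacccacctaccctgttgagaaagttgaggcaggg
Slc11a1: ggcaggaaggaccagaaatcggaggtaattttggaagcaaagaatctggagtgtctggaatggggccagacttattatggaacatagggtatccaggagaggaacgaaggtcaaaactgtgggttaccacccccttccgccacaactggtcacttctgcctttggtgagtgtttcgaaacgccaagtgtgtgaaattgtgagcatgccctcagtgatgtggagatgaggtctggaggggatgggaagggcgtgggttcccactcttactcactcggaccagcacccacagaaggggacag
Slc7a8: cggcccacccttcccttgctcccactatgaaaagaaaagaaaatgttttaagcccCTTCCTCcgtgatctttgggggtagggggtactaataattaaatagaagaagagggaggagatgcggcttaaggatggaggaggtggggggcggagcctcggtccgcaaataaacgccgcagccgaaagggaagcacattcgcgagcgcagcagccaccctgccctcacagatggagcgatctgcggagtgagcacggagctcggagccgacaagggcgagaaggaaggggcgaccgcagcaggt
No match says only that these letters are absent from these bases.

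Slc24a2 and Slc38a2 stood together in mature oligodendrocyte-like cells, a lineage with the known regulator SOX10, and were searched on both strands for ACAAAG, the core of the motif of SOX factors. It was in 18.7% of all promoters and in 17 of 148 promoters of members (11.5%). Slc48a1 and Slc12a2 have no entry. Of 4 genes leading in this class with an entry, Slc44a1 has no match in its 2 promoters and Slc6a9 has 1 in 1 of its 3, which is not printed. Slc24a2 and Slc38a2 have a promoter with a match, shown in capitals: chr4:87230491-87230790 (minus strand) for Slc24a2, where a second promoter of the gene has none, and chr15:96699679-96699978 (minus) for Slc38a2.
Slc24a2: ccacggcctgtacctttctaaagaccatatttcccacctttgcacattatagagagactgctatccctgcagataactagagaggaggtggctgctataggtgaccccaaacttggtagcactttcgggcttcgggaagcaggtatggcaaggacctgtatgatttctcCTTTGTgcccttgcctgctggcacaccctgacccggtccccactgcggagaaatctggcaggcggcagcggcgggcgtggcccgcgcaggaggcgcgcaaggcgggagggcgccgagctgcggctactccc
Slc38a2: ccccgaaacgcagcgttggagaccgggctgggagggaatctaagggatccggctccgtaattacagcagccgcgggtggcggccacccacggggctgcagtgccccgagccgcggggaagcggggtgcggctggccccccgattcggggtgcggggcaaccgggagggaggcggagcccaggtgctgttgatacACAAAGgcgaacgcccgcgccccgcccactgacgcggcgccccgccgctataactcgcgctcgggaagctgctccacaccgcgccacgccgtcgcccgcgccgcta
The match lies 81 bases before the start in Slc24a2 and 56 before it in Slc38a2, and is a description of these letters, not of a bound site.

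67 members were under the count filter, with 6 to 324 counts in the 9 classes together (median 117), and have no test. Some of them still fell mostly in 1 class. The cationic amino acid carrier Slc7a3 had 132 of its 146 counts in precursor-like cells, and the bicarbonate carrier Slc4a10 had 105 of 121. Slc17a6, which loads glutamate into vesicles and marks excitatory neurons, had 103 of 117 counts in neuroblast-like and 10 in proliferating progenitor-like cells. Slc29a4, a carrier of monoamines, had 66 of 96 in neuroblast-like cells, and Slc25a45, a mitochondrial carrier, 70 of 85 in microglia-like cells. The neuronal glucose carrier Slc2a3 had 61 of 125 counts in precursor-like and 44 in neuroblast-like cells. These genes were picked after their values were seen, except Slc17a6 and Slc2a3.

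A further unnamed cluster held 13 cells of experiment 4 with 29954 CPM of fibroblast and 8049 CPM of mural markers, and 5 cells of experiment 2 with 2301 and 31448 CPM. In the 13 cells Slc7a11 was at 3431 CPM (exact 95% Poisson interval 2980.4 to 3930.1), Slc22a8 at 1435 (1149 to 1770.1), the GABA and betaine carrier Slc6a13 at 1122 (871 to 1422) and Slc13a3, which carries dicarboxylates, at 313 CPM (189 to 489). Slc6a13 had 68 counts there and 6 in the 9 classes together. In the 5 cells of experiment 2, Slc22a8 was at 1151 CPM (594.5 to 2009.7), and Slc7a11, Slc6a13 and Slc13a3 had no count, which allows up to 354 CPM by the same interval. Fibroblast markers were thus higher in the 13 cells and mural markers in the 5, and their part in these levels was not tested.

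Stem cell-like cells, which also carried astrocyte markers, were compared directly with astrocyte-like cells. 1 member was higher in stem cell-like cells (background 0.395%) and 6 were lower (background 2.41%): Slc4a4, Slc39a12, Slc3a2, Slc25a3, Slc7a10 and Slc7a2. Slc4a4 fell by 3.61 ± 0.56 (log2 ± SE; adjusted p 2.51e-07, edgeR) and Slc39a12 by 2.49 ± 0.54 (6.54e-04), each lower in 2 of 2 experiments. Slc3a2 averaged 207 ± 5.0 CPM in stem cell-like cells (n = 2) and 858 ± 127 CPM in astrocyte-like cells (n = 5), a fall of 1.98 ± 0.54 (0.0131). The mitochondrial phosphate carrier Slc25a3 fell by 1.62 ± 0.47 (0.0274). The calls of Slc3a2 and Slc25a3 were lost in a second random division of the counts (log2 fold changes -0.77 and -0.88, adjusted p 0.513 and 0.325), with cells of at least 2000 transcripts and without the count filter or the block, and that of Slc25a3 also with all counts (-1.22, 0.0789) and at resolution 1.5 (0.0684). Slc25a18, Slc14a1 and Slc20a2 were not called, with means of 415 and 384, 387 and 464, and 448 and 265 CPM in stem cell-like and astrocyte-like cells.

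The 1 higher member, Slc38a1, was at 442 CPM in stem cell-like cells of experiment 2 and at 0 in those of experiment 5, which are 5 cells, against 27.4 ± 18.5 CPM (n = 5) in astrocyte-like cells. Its call (3.64 ± 0.69, adjusted p 5.02e-05) thus rests on experiment 2, and without it the fitted value was -3.50 (0.848). The 7 calls were 0 without experiment 2, 4 without experiment 4, 2 without experiment 5 and 3 in a fit without the experiment block. With 2 experiments of stem cell-like cells, these p-values rest largely on the spread estimated over all classes and genes.

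Between neuroblast-like and stem cell-like cells most calls were lower. 16 members were lower (background 9.50%) and 4 higher (background 7.40%). Slc14a1 fell by 5.45 ± 0.67 (adjusted p 4.79e-13), at 4.98 ± 7.28 CPM in neuroblast-like (n = 5) and 387 ± 150 CPM in stem cell-like cells (n = 2). Slc25a18 fell by 4.36 ± 0.72 (1.08e-07), Slc6a11 by 3.57 ± 0.61 (3.06e-07) and Slc20a2 by 3.27 ± 0.56 (3.77e-07), each lower in 2 of 2 shared experiments. The 4 higher members were Slc6a6 (1.94 ± 0.69, adjusted p 0.0340), Slc29a1 (2.44 ± 0.87, 0.0342), Slc25a22 (2.80 ± 1.0, 0.0363) and Slc4a7 (3.07 ± 1.12, 0.0406), Slc6a6 and Slc25a22 higher in 2 of 2 shared experiments and the others in 1. All 4 higher calls were lost in DESeq2 (adjusted p 0.0851 to 0.164), without the count filter (0.0711 to 0.157) and under another scaling of the sums, which shifted all genes of this comparison by -0.56 (log2) and left 24 lower and 0 higher, so the split between higher and lower depends on the scaling. Without experiment 2 there was 1 call in place of 20 and Slc4a7 was at -0.02.

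Mature oligodendrocyte-like against oligodendrocyte precursor-like cells gave the most calls of the 3 pairs, 13 higher (background 11.3%) and 16 lower (background 14.8%), that is 17.8% and 21.9% of the members tested. Higher were Slc24a2 (7.53 ± 0.66, adjusted p 1.42e-25), Slc48a1 (4.19 ± 0.36, 4.87e-26), Slc12a2 (3.25 ± 0.34, 3.85e-18) and Slc38a2 (2.30 ± 0.34, 3.81e-10), in 3 of 3 shared experiments each. Slc24a2 had 172 counts in mature and 5 in precursor-like cells. Among the other 9 were Slc6a9, Slc44a1, Slc2a1, Slc20a2 and Slc16a1.

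Lower were Slc22a17, which fell by 1.82 ± 0.39 (adjusted p 4.09e-05, edgeR), and Slc22a23 by 2.05 ± 0.56 (1.59e-03). Slc1a1 had 1 count in mature and 309 in precursor-like cells (adjusted p 1.02e-07), so its fitted fold depends on the fit's prior count. These 3 were lower in 3 of 3 experiments. The 29 calls were 11 without experiment 1, which holds 50 of the 66 mature cells, and 18 without experiment 3.

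**Figure D3:**
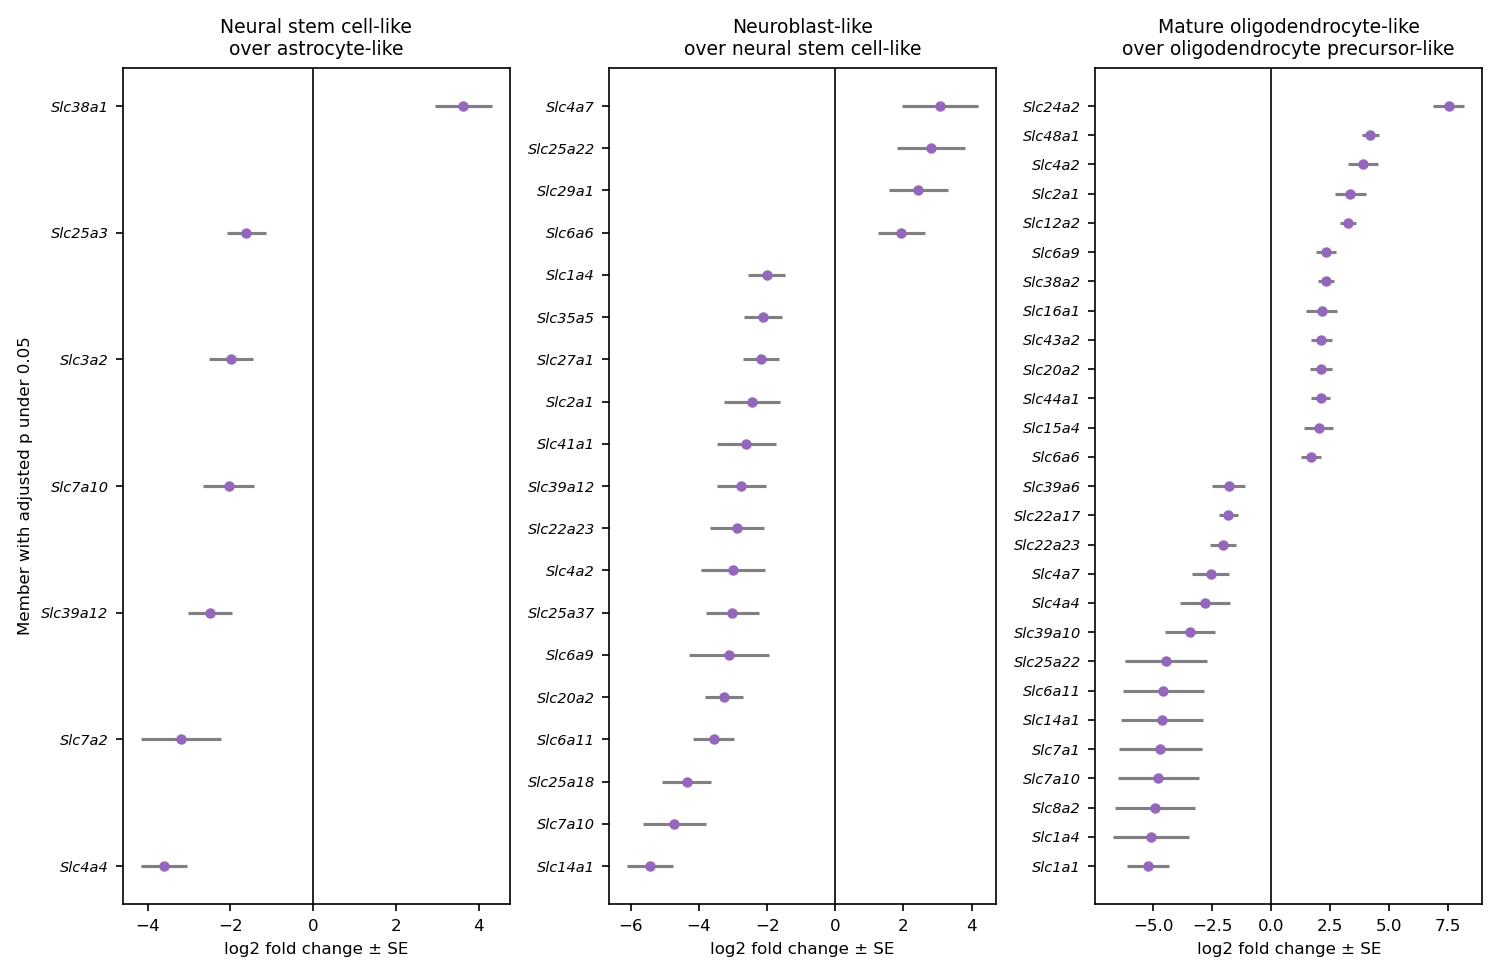
Log2 fold change ± SE (edgeR) of members called at an adjusted p under 0.05 in 3 comparisons of related classes, ordered by size, with 0 marked by a line. The first panel holds 7 members with Slc38a1 alone to the right, the second 19 of 20 with 15 to the left, and the third 27 of 29 with 13 to the right.

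2 members followed the experiment more than the class. Slc23a1, a vitamin C carrier, had medians over the classes of 308, 73.1, 1051, 304 and 66.8 CPM in experiments 1 to 5, and Slc7a14, a lysosomal member of the amino acid carriers, of 309, 149, 1147, 663 and 546 CPM. In experiment 3 every class lay between 871 and 1262 CPM of Slc23a1, above every value of the other experiments (at most 506 CPM). Neither gene was called higher in any class. The plates of experiment 3 also had 27.04% to 81.34% of their counts in spike-ins and entries that name no gene, against 3.01% to 49.3% in the other niche experiments. The niche files list no mitochondrial entries. The part of these left-out counts in the 2 genes was not tested.

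**Figure D4:**
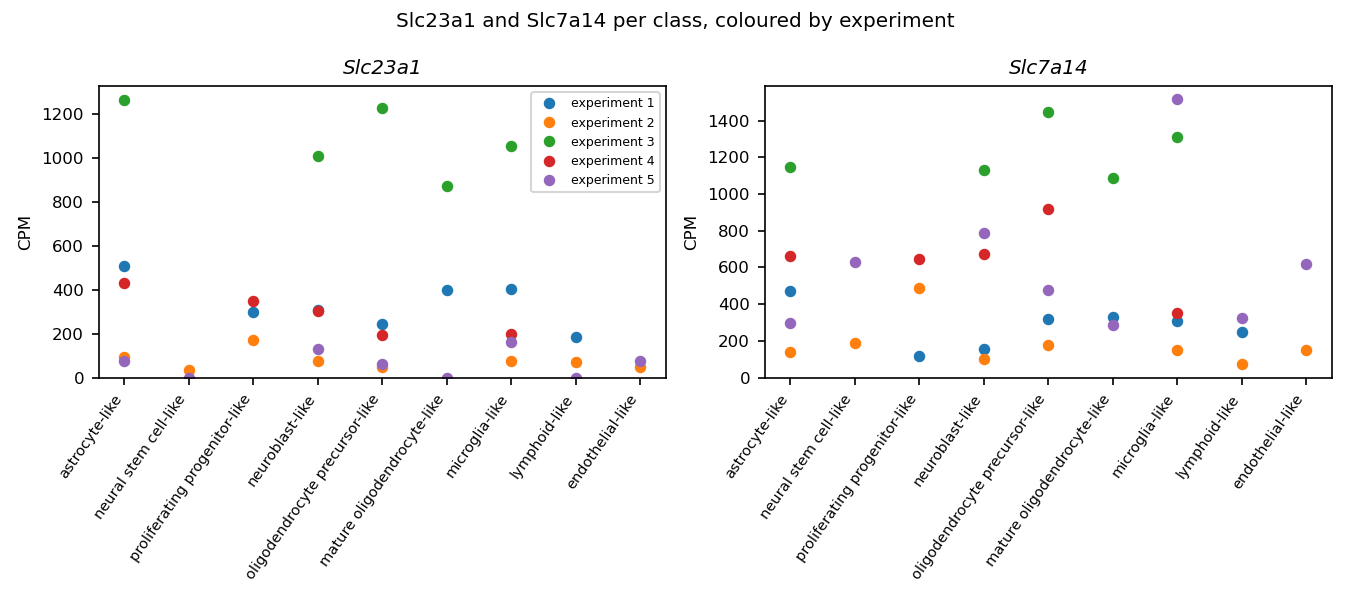
Level (CPM) of Slc23a1 and Slc7a14 in each class, coloured by niche experiment. The green points of experiment 3 lie between 871 and 1262 CPM of Slc23a1 in all 5 of its classes, and the points of experiments 2 and 5 between 0 and 172 CPM.

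The library of older mice and the NestinGFP library are 1 library each, so no test was made against the niche experiments, and age, reporter and sort cannot be told apart from the library and its sequencing run. A member was counted where its level in a class lay outside the range of the niche experiments and at least 4-fold from their mean, with at least 5 counts on average in one of the 2 groups. Here levels were scaled within each class and differ a little from those above.

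The compared cells were often in different clusters of a class. Of NestinGFP mature oligodendrocyte-like cells 86 of 93 lay in a cluster led by Ptgds and Mobp, whereas 49 of 50, 10 of 10 and 6 of 6 of those of experiments 1, 3 and 5 lay in one led by Cldn11 and Mbp. Of NestinGFP astrocyte-like cells 66 of 92 lay in a cluster led by Neat1 and Grin2c, which held 29 of 81, 6 of 45 and 7 of 47 of those of experiments 1, 2 and 5 and none of the others. Precursor-like cells of the NestinGFP library (67 of 69) and of older mice (19 of 21) and microglia-like cells of older mice (47 of 48) were mostly in clusters whose niche cells came mostly from experiment 2. The part of this in the counts below was not tested.

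In the older library 1 of 85 members compared in neuroblast-like cells was higher (background 2.50%) and 2 lower (background 1.93%). In precursor-like cells 0 of 114 were higher (background 2.48%) and 4 lower (background 3.33%), in microglia-like cells 1 of 59 was higher (background 4.14%) and 0 lower (background 2.20%), and in lymphoid-like cells 1 of 9 was higher (background 12.5%) and 0 lower (background 1.24%). Slc2a3 had no count in neuroblast-like cells of the older library, against 51.8 to 98.6 CPM in the 5 niche experiments. The older sum held 11 cells and 44003 counts. Those of niche experiments 1 and 5 held 13415 and 5166 counts, where 1 count is a large step. Slc38a6, a member of the glutamine carrier family, was at 25.02 CPM in precursor-like cells of the older library (2 counts), against 56.7 to 172 CPM. In microglia-like cells the 1 member past these limits was Slc25a44, a mitochondrial carrier of branched-chain amino acids, at 77.6 CPM (8 counts) against 0 to 35.4 CPM.

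In NestinGFP cells 4 of 110 members compared in astrocyte-like cells were higher (background 3.77%) and 1 lower (background 0.759%). In neuroblast-like cells 2 of 94 were higher (background 4.59%) and 1 lower (background 0.603%), and in precursor-like cells 1 of 123 was higher (background 2.57%) and 2 lower (background 1.09%). Mature oligodendrocyte-like cells had 9 of 91 higher (background 12.5%) and 2 lower (background 0.781%). Slc23a1 was among the lower members in each of the first 3 classes, at 38.2, 20.03 and 22.8 CPM, against 55.9 to 952, 70.6 to 937 and 36.1 to 968 CPM in the niche experiments.

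Among the 4 higher in astrocyte-like cells of the NestinGFP library were Slc12a2 at 186 CPM, against 0 to 77.0 CPM in the niche experiments, and Slc24a2 at 65.5 CPM, against 0 to 16.9 CPM. Both led in mature oligodendrocyte-like cells above. The 13 mature oligodendrocyte markers summed to 3266 CPM in the same cells of the NestinGFP library, with all 13 present, against 356 to 1106 CPM in the niche experiments, with 5 to 11 present, and their part in the result was not tested. The other 2 were Slc24a3, which exchanges calcium and potassium for sodium, and Slc7a1, at 32.7 and 38.2 CPM (6 and 7 counts).

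**Figure D5:**
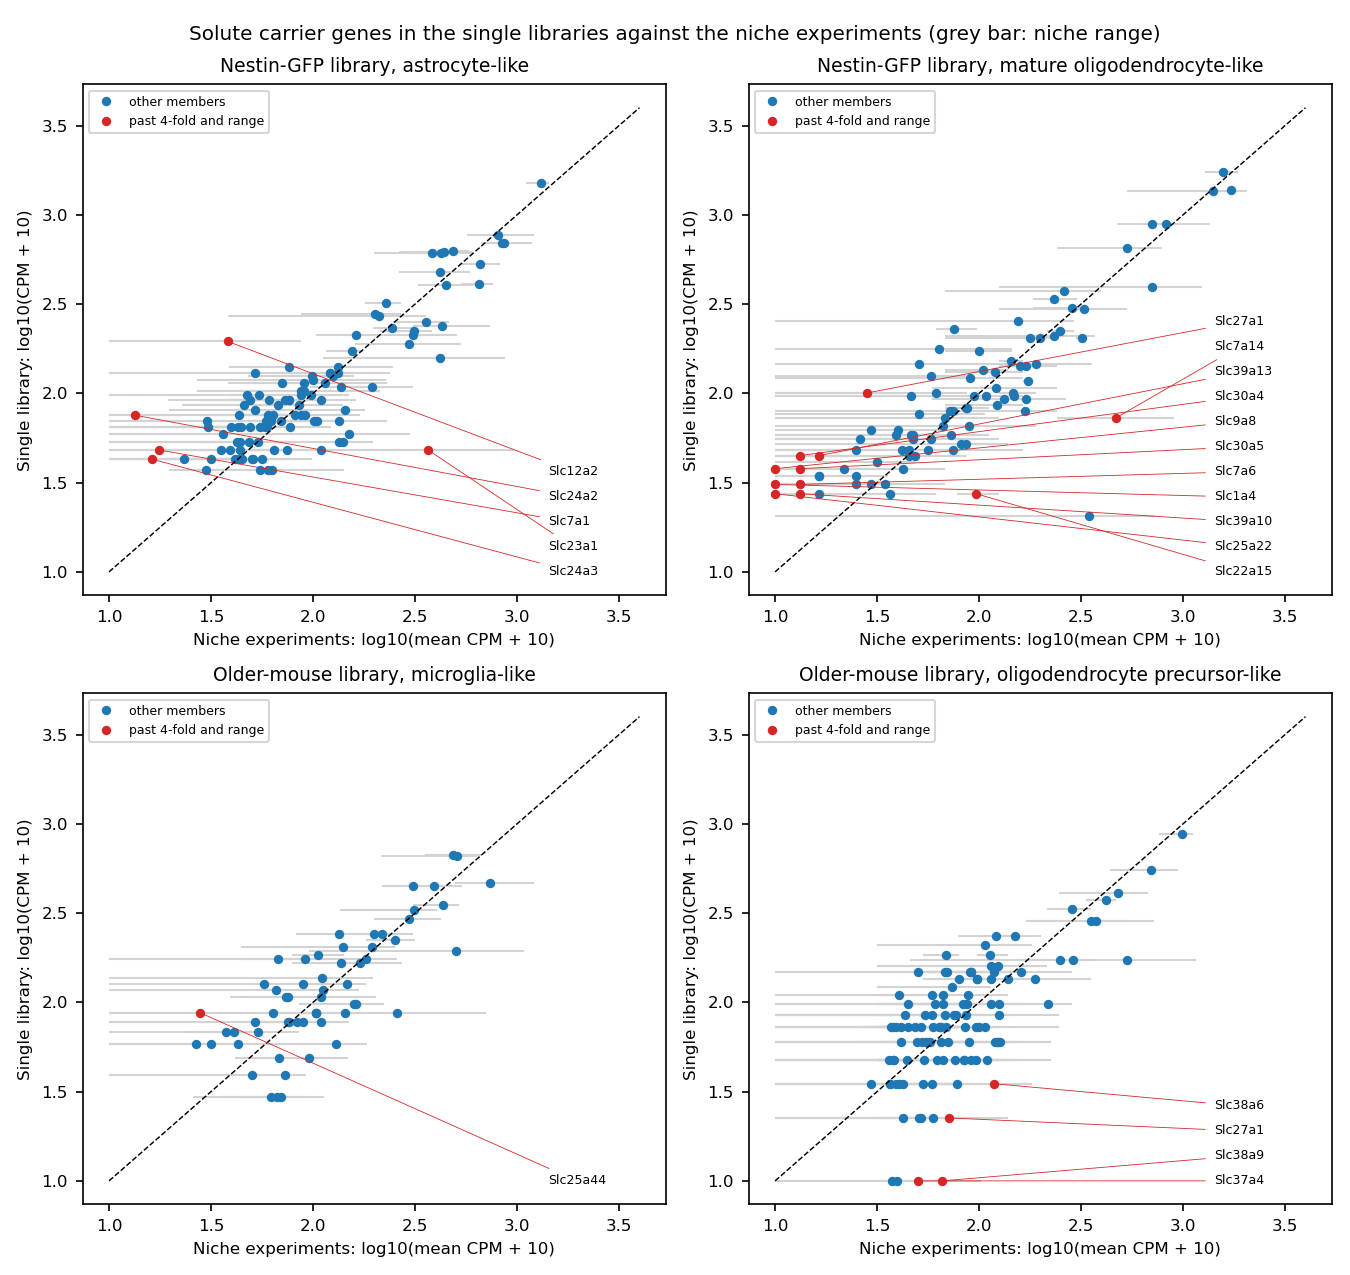
Members in single libraries (vertical) against the mean of the niche experiments (horizontal), both as log10(CPM + 10), with the niche range as a grey bar, the line of equality dashed and members past 4-fold and the range in red with their names. Most points lie near the line in all 4 panels, and the NestinGFP astrocyte-like panel has Slc12a2 and Slc24a2 above it and Slc23a1 below it.

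Other transporters and partner proteins, whose symbols do not have the form Slc, number, a, number, were listed too. Of 63, among them organic anion carriers of the Slco family and ATP-driven transporters of the Abc families, 24 passed the filter, with 11 called higher in astrocyte-like cells (24.2% of all genes tested were), 8 in endothelial-like (7.03%), 7 in precursor-like (23.8%), 6 in microglia-like (24.6%) and 6 in mature oligodendrocyte-like cells (15.8%), and 2 or fewer in each other class. The organic anion carrier Slco1a4 was at 5761 ± 1719 CPM in endothelial-like cells (n = 2; 8.13 ± 0.36, adjusted p 5.45e-79), and basigin (Bsg), the partner protein of the lactate carrier Slc16a1, at 8969 ± 4512 CPM (4.26 ± 0.28, 1.42e-41). Slco1c1, which carries thyroid hormone, was called in endothelial-like (3120 ± 380 CPM, n = 2) and astrocyte-like cells (1111 ± 337 CPM, n = 5). Slco2b1 was at 1887 ± 518 CPM (n = 5) in microglia-like cells, and Abca2, a lipid transporter of myelin-forming cells, at 1348 ± 561 CPM (n = 3) in mature oligodendrocyte-like cells.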

How the data were processed

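Single-cell SORT-seq libraries of mouse hippocampus were analysed: 1 from older mice, 1 of NestinGFP cells and 31 niche libraries in 5 experiments. Each value is an estimated count of transcripts, as deposited by the authors after a correction for saturation of the molecular identifiers that the values themselves show: 99.33% to 100.0% of them return to whole UMIs within 0.05 for a pool of 256 (28 libraries) or 4096 (5 libraries). BWA 0.6.2-r126 and mm10 are named in the submitters' processing notes, while the counting rule and use of strand are not given there or in the labels, so overlapping genes may share counts. The values are labelled with well numbers only, which repeat in every library, so cells shared between libraries could not be looked for.

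Spike-ins, mitochondrial entries and entries that name no gene were left out (3.01% to 81.3% of counts per library). Only the older and NestinGFP files list mitochondrial entries. UMIs recovered from the values were split by chance, per cell, into 2 equal parts. The first part gave classes (2000 variable genes without names starting with Slc, 30 principal components, 15 neighbours, Leiden at resolution 1.0), named from 17 marker lists with 178 markers where at least 3 were present in 10% of the cells. No doublet caller was run, and 67 cells (3.86%) carried 3 or more markers of a second class. 106 cells stayed unnamed, among them 2 clusters that held different cell types in different experiments, a rule set after seeing the data. The second part was summed per class and experiment and tested with edgeR 4.0.16 (quasi-likelihood, TMM scaling, filterByExpr, experiment as a block, Benjamini-Hochberg over 4810 genes), in R 4.3.3. The test was also run on simulated counts that held no other difference between classes. The raised genes were drawn from the more abundant ones, so recovery of scarcer genes was not measured, and 3010 and 2950 genes passed the filter. Of genes raised 2-fold and 4-fold there, 85% and 100% were called in astrocyte-like cells, but 4% and 59% in endothelial-like cells. Numbers of calls in classes of different size thus differ in what they can detect.

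Experiments are the replicates, and the labels' experiment numbers pair the classes because all classes of an experiment come from the same sorted plates. Whether the libraries of an experiment share mice is not given, so the spread between mice is not measured. With experiment as a block, p-values measure how far differences between classes vary from experiment to experiment, with a spread estimated over all classes and genes. The 140 members, the marker lists and the lists of carriers were chosen with earlier results of these data known. Named genes are the 6 members with the lowest adjusted p higher in each class, up to 4 in each direction for each pair, and a list of carriers with textbook roles. Others are named where a count or a pattern turned on them, after their values were seen. Alternatives were another scaling, DESeq2 1.42.0, no count filter, no block, all counts, a second random division, 2000 transcripts per cell, resolution 1.5, raw UMIs, 10 cells per sum, 2-fold in the single libraries, each experiment left out and, added after seeing the data, cells with a second class left out and mixed clusters named. Values of 2 members, which the counts of members include, are not reported here. Intervals cover counting error only.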

Additional observations from a re-analysis of the deposited data

Results flagged for a closer look

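Of the 39 groups of 4 or more experiments examined for a value far from the others, 2 had one, and chance gives about 1 in 20. Both were astrocyte-like cells of experiment 4, the smallest astrocyte-like group with 15 cells. Of these, 14 lay in a cluster led by Serpina3n, Timp1 and Gfap, which held 2 cells of experiment 5 and none of experiments 1, 2 and 3, so they were set against other clusters of the class. Slc7a11 was at 1001 CPM there, against 395 to 538 CPM in the other 4 experiments. Slc25a3 was at 1612 CPM there, against 905 to 1099 CPM in the other 4 experiments.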

How the results depend on the processing

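Of 79 named differences, all called, 56 kept their call under every alternative. Of 1281 values under alternatives, 1186 kept direction and call, 93 kept direction only and 2 reversed, both without experiment 2: Slc38a1 in stem cell-like against astrocyte-like cells (-3.50, and up to 4.35 without another experiment) and Slc4a7 in neuroblast-like against stem cell-like cells (-0.02, and up to 6.64). The cause of the changes below was not tested, except that fewer cells or counts enter where a setting removes them.

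With all counts in place of 1 part, calls were 44 for mature oligodendrocyte-like against precursor-like cells, 2 in lymphoid-like, 29 in mature oligodendrocyte-like, 23 in stem cell-like, 19 in neuroblast-like and 37 in precursor-like cells, and 61 lower. A second random division gave 1 in lymphoid-like and 26 in stem cell-like cells. Without the count filter there were 47 in astrocyte-like, 40 in precursor-like and 2 in proliferating progenitor-like cells, and 4 for stem cell-like against astrocyte-like cells. The other scaling gave 6 in neuroblast-like and 1 in proliferating progenitor-like cells, and DESeq2 and raw UMIs gave 1 each in the last. At least 2000 transcripts per cell gave 19 for mature against precursor-like cells, 6 in neuroblast-like and 2 in proliferating progenitor-like cells, resolution 1.5 gave 2 in proliferating progenitor-like cells, and at least 10 cells per sum gave 7 in neuroblast-like cells.

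Without the replicate block, stem cell-like against astrocyte-like cells gave 3 calls, and 5 of the 79 named differences lost their call. No other count moved beyond 1.5 times.

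Leaving out each experiment in turn gave 11 to 31 calls for mature against precursor-like cells, 0 to 8 for stem cell-like against astrocyte-like and 1 to 19 for neuroblast-like against stem cell-like cells. Calls higher were 7 to 11 in endothelial-like, 0 to 1 in lymphoid-like, 9 to 20 in mature oligodendrocyte-like, 5 to 19 in stem cell-like, 4 to 14 in neuroblast-like and 1 to 3 in proliferating progenitor-like cells, and lower calls over all classes were 3 to 21.

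In the NestinGFP library a 2-fold limit gave 13 members in astrocyte-like, 22 in mature oligodendrocyte-like, 16 in neuroblast-like and 12 in precursor-like cells, and all counts gave 2 in astrocyte-like and 6 in neuroblast-like cells. In the older library 2-fold gave 5 in lymphoid-like, 11 in microglia-like, 10 in neuroblast-like and 19 in precursor-like cells, and all counts gave 6 in lymphoid-like cells. Leaving out 1 niche experiment gave 9 to 22 in NestinGFP mature oligodendrocyte-like and 3 to 8 in NestinGFP neuroblast-like cells, and 1 to 2, 0 to 2 and 3 to 10 in lymphoid-like, microglia-like and neuroblast-like cells of older mice. Sums of as few as 5166 counts limit what the smallest can show.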
